A study of Mus musculus with 319 samples.

Results

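Muscle arrays of F2 mice were sorted by 3 genes of slow muscle fibres, and arrays rich in these transcripts were compared with arrays poor in them. The series has 319 arrays, 1 per sample. Of these, 263 arrays had a log2 ratio of the B cell gene Cd79b at or below -0.50, and the other 56 were left out. Each eligible array was given a slow-fibre score, the mean z-score of Myl2, a myosin light chain, and of Tnnt1 and Tnnc1, both troponins. Members were thus chosen by these measured values. The 66 arrays in the top 25% of the score are called slow-fibre-rich, the 66 in the bottom 25% slow-fibre-poor, and the 131 between them the middle arrays. The comparison thus covers 132 of 319 arrays.

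All animals were of 1 cross, C57BL/6J by C3H/HeJ, with ApoE null on both sides, and all received the Western diet, high in fat, between 8 and 24 weeks of age. Both sexes were included, but the labels give no genotype, muscle, date or batch, and a sex for only 1 animal, so slow-fibre-rich and slow-fibre-poor are groups read from the arrays and no treatment separates them. RNA of each animal, in Cy3, was hybridised with a pool of every sample, in Cy5, and no dyes were swapped. Each value is therefore a log2 ratio to that pool, which gives differences between animals in 1 probe and no level of a gene against another gene. A positive ratio was taken to mean that the animal had more of the RNA than the pool had, because the Y-linked gene Eif2s3y had its long side below the pool, under -3.71 on 164 of the 319 arrays and over -0.79 on 155. If the deposited ratios ran the other way, rich and poor would change places. Between the 132 compared arrays (8646 pairs), the lowest correlation over probes was -0.13, the median 0.40 and the highest 0.81, so 0 pairs lay under -0.3. Arrays have no count of molecules, and their number limits the precision.

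Skeletal muscle is built of slow and fast fibres. Slow (type I) fibres carry their own isoforms of the myosin heavy and light chains, the troponins and tropomyosin, pump calcium back with the SERCA2 isoform, and rely on mitochondria. Fast fibres use other isoforms of the same proteins and more glycolysis. Whole muscles differ in their mix: the soleus of the mouse is known for its many slow fibres, while most limb muscles are largely fast. Calcineurin and NFAT, PGC-1alpha, PPAR factors and estrogen-related receptors favour the slow or oxidative programme, and Sox6, Eya factors and Tbx15 the fast one.

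The windows before the starts of the 3 rule genes and of Tnni1 and Myh7, slow isoforms described below, are shown as the sequence these genes are transcribed from. They are the 250 bases upstream of the RefSeq start on GRCm38.p6, 5′ to 3′ along the gene's strand, with each E box (CANNTG, the letters bound by MyoD and related factors) in capitals.
Tnnt1, chr7:4515976-4516225, minus strand: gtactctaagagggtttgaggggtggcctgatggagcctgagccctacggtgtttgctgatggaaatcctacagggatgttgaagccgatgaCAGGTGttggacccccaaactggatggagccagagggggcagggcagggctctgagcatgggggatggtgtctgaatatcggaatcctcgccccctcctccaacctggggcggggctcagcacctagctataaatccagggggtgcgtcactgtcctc
Tnnc1, chr14:31208062-31208311, plus strand: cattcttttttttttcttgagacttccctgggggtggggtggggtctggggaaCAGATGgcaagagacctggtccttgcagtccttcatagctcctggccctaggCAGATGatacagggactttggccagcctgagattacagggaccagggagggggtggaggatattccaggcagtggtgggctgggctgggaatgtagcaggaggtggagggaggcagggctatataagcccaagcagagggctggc
Myl2, chr5:122092474-122092723, plus strand: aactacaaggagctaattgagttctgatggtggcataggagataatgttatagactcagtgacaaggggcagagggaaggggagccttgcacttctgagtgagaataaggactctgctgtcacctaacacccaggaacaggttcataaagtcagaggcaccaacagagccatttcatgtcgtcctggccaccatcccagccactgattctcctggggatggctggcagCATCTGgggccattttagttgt
Tnni1, chr1:135799171-135799420, plus strand: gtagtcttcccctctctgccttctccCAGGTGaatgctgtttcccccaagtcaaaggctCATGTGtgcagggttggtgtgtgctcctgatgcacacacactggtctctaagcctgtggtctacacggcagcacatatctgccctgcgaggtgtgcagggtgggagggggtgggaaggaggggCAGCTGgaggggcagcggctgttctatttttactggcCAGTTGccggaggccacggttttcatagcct
Myh7, chr14:54994627-54994876, minus strand: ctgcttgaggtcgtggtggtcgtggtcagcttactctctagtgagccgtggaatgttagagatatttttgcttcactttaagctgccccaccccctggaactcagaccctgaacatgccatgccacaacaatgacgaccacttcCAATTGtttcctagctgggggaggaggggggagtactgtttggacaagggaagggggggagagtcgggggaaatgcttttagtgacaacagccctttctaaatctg
Of the 16 rule and slow-fibre genes searched, 14 had a window, 21 windows in all. An E box on either strand stood in 19 of the 21 windows, 13 of the 14 genes, against 66.2% of all 32851 promoter windows of this length. The MCAT letters CATTCC, known from TEAD factors, stood in 2 of 21 windows against 12.6% of all windows: 58 bases before the start of Tnnc1 and 201 bases before the printed start of Myh7. Myl2, Tnni1 and Myh7 each have another RefSeq start with a window of its own, not printed, and the other window of Myh7 has no MCAT letters. For Tnni1 and Myh7 that window overlaps the printed one, so some E boxes were counted in both. The NFAT core GGAAA stood in 13 of 21 against 55.6%. No E box overlapped an MCAT or NFAT match in the 21 windows. The letters describe the windows and were not tested.

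The score itself spanned a wide range. It ran from 0.69 to 1.59 in the rich arrays (median 0.99) and from -2.96 to -0.56 in the poor arrays (median -1.11). The array just outside the rich group scored 0.68 and the array just outside the poor group scored -0.53, so neither border lies in a gap. Tnnt1, the slow troponin T, had a lowest ratio of 0.02, a median of 0.68 and a highest of 1.62 in the rich arrays, and -4.56, -2.08 and -1.29 in the poor arrays. For Tnnc1, the slow and cardiac troponin C, the values were 0.08, 0.70 and 1.54 in the rich arrays against -4.49, -2.18 and -1.36 in the poor arrays. Myl2, the slow regulatory light chain, ran from 0.15 through a median of 0.64 to 1.62 in the rich arrays and from -4.65 through -2.07 to -1.14 in the poor arrays. The poor arrays thus lay much farther below the pool than the rich arrays lay above it. Over the 263 arrays the 3 genes correlated pairwise at r = 0.97 to 0.99. These values chose the groups and carry no test. The measured RNA is that of whole tissue, so fewer slow fibres and less slow-fibre RNA per fibre cannot be told apart.

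The score moved with other features of the arrays. Animal numbers 181 to 300 held 53 of the 66 poor arrays (80.3%), but 17 of the 66 rich arrays (25.8%) and 36 of the 131 middle arrays (27.5%). In blocks of 60 animal numbers the median score was 0.38, 0.46 and 0.63 in the first 3 blocks, -0.61 and -0.38 in the next 2, and 0.19 in the last. The poor arrays of these 6 blocks numbered 2, 3, 3, 28, 25 and 5, and the rich arrays 10, 13, 17, 8, 9 and 9. The side of the Eif2s3y gap moved with the score as well: 10 of the 66 rich arrays lay above it, against 75 of 131 middle and 44 of 66 poor arrays. Because Eif2s3y is Y-linked, arrays below the gap read as female under the direction taken above. They made up 56 of the 66 rich and 22 of the 66 poor arrays. Rich against poor is thus confounded with sex as read from this gene. Below the gap 134 eligible arrays had a median score of 0.51, and above it 129 had one of -0.09. The labels do not say what animal number stands for, and the part of either feature in the differences below was not tested as a cause. Results are therefore also given with Eif2s3y and the block of animal number as covariates. Measures of array quality were alike in both groups: the median SD over probes was 0.36 in both, the median array median 0.04 in both, and 0.638% of values were blank in rich and 0.620% in poor arrays.

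**Figure D1:**
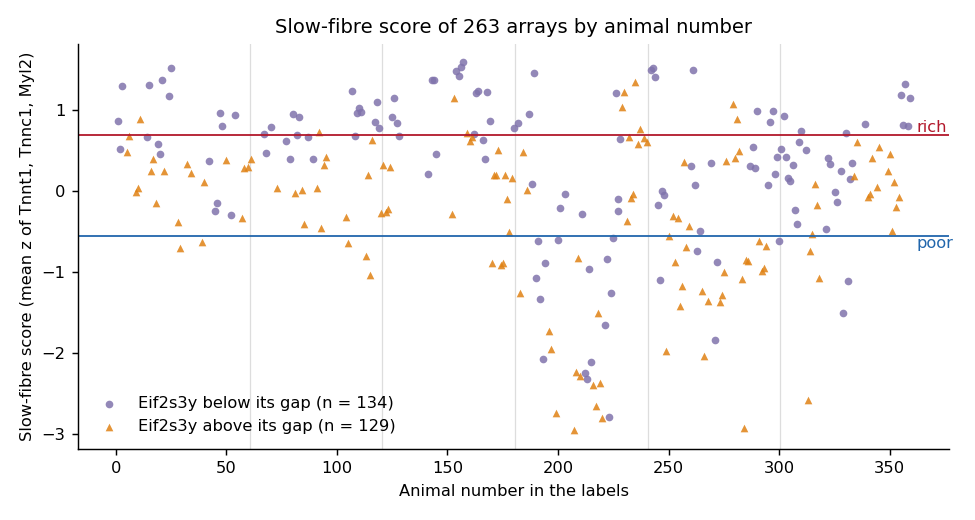
The slow-fibre score (mean z-score of Tnnt1, Tnnc1 and Myl2) of each of the 263 eligible arrays is plotted against animal number, with purple circles for arrays below the Eif2s3y gap and orange triangles for those above, grey lines between blocks of 60 numbers, and red and blue lines at the borders of the rich and poor groups. Of the 66 poor arrays, 53 carry numbers between 181 and 300, and 44 lie above the Eif2s3y gap.

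Outside the genes of the rule, 23190 probes were tested with limma, and a probe was called at a Benjamini-Hochberg adjusted p under 0.05. In the rich arrays 1920 probes (8.28%) were higher and 2047 (8.83%) lower. With both covariates 989 (4.26%) were higher and 1170 (5.05%) lower. Of the calls without covariates, 721 higher and 688 lower ones were also called in the same direction with them, and 1 was called in the opposite direction. Most differences were small: 23 probes (0.0992%) were higher by over 1 log2 unit and 9 (0.0388%) lower by as much. On 9 probes (0.0388%) every rich array with a value stood above every poor array, and on 0 probes the reverse held. The named ones among the 9 were Tnni1, Atp2a2, Myoz2, Spred2, Myh7 and a pair of Tpm3 probes. The groups are extremes of 1 distribution, so all sizes below describe these extremes. In genes with several probes, the value is that of the probe with the smallest p. Spred2, Erf, Pdlim1, Ptges3l, Acadm, Hadhb and Fabp3 had 2 probes each, Aldoa 3, Ppp1r14b 4, Odc1 5 and Pkm 6. The values of their other probes are not given. In counts of genes, a gene is called where any of its probes is, and mixed where its probes are called both ways. Genes with many probes thus have more chances of a call.

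Slow isoforms of the contractile proteins stood together in the rich arrays. All 4 tested genes of the slow sarcomere list were higher, with and without the covariates, where 8.65% of all 10753 named genes were higher and 10.9% lower without covariates, and 4.34% and 5.42% with them. The median difference over the 4, with a gene's probes averaged, was 1.69 log2 units, against -0.0027 over all genes. Another 6 genes of this list had no named probe.

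Myh7, the slow (beta) myosin heavy chain, had a lowest ratio of -0.80, a median of 0.45 and a highest of 1.61 on the 55 rich arrays with a value. On the 66 poor arrays it ran from -5.77 through -2.26 to -1.15. No rich value fell into the poor range. The difference was 3.30 ± 0.17 log2 units (SE; limma adjusted p = 1.86e-35), or 9.84-fold, and 2.86 with the covariates. Tnni1, the slow troponin I, ran from 0.05 through 0.67 to 1.49 in rich and from -2.76 through -1.52 to -0.80 in poor arrays. Its difference was 2.31 ± 0.07 (adjusted p = 4.81e-59, the smallest of all tested probes) and 2.11 with the covariates. These groups did not overlap either.

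Tpm3, the slow tropomyosin, had 5 probes that disagreed. On the probe with the smallest p the rich arrays ran from -0.11 through 0.61 to 1.46 and the poor arrays from -2.28 through -1.19 to -0.69. That difference was 1.99 ± 0.07 (adjusted p = 9.48e-58) and 2.00 with the covariates. Another probe of Tpm3 differed by 3.23 and the other 3 by 0.10, 0.11 and -0.05, of which the last was not called. Lmod2, which starts actin filaments at the thin-filament end, differed by less: 0.68 ± 0.05 (adjusted p = 5.72e-24), with medians of 0.33 in rich and -0.36 in poor arrays and ranges that overlapped. With the covariates Lmod2 differed by the same 0.68.

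The calcium-handling and Z-disc list of slow muscle moved in the same direction. All 9 tested genes were higher, with a median difference of 0.78, and 8 stayed called with the covariates, with a median of 0.58. Atp2a2, the SERCA2 calcium pump, ran from -0.42 through 0.63 to 1.42 in rich and from -3.67 through -1.96 to -0.88 in poor arrays. Its difference was 2.69 ± 0.09 (limma adjusted p = 2.13e-55), and 2.64 with the covariates. Myoz2, a Z-disc protein that binds calcineurin, ran from -0.22 through 0.43 to 1.02 against -3.71 through -1.30 to -0.29, a difference of 1.79 ± 0.10 (adjusted p = 8.27e-36), and 1.60 with the covariates. The groups did not overlap for either gene.

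Genes of the muscle's mechanical sensing followed with overlapping ranges. Csrp3, the muscle LIM protein, had a median of 0.33 in rich and -0.94 in poor arrays, and 1 poor array reached 0.73. The difference was 1.43 ± 0.12 (limma adjusted p = 3.16e-21), and 1.25 with the covariates. Ankrd2, a stretch-responsive ankyrin repeat protein, differed by 0.91 ± 0.08, and Fhl1, a LIM protein of the sarcomere, by 0.78 ± 0.07. The small heat shock proteins were higher by less: Cryab by 0.50, Hspb6 by 0.36 and Hspb7 by 0.11. Casq2, the calsequestrin of slow and cardiac muscle, was higher by 0.35 ± 0.04. With the covariates the differences were 0.86 for Ankrd2, 0.58 for Fhl1, 0.37 for Cryab, 0.27 for Casq2 and 0.09 for Hspb7. Hspb6 was the member lost with them, at 0.17 and an adjusted p of 0.0629. Each of these 13 genes of both lists was higher in the rich arrays in all 6 blocks of animal number, although 3 of these blocks held 3 or fewer poor arrays, and on both sides of the Eif2s3y gap.

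**Figure D2:**
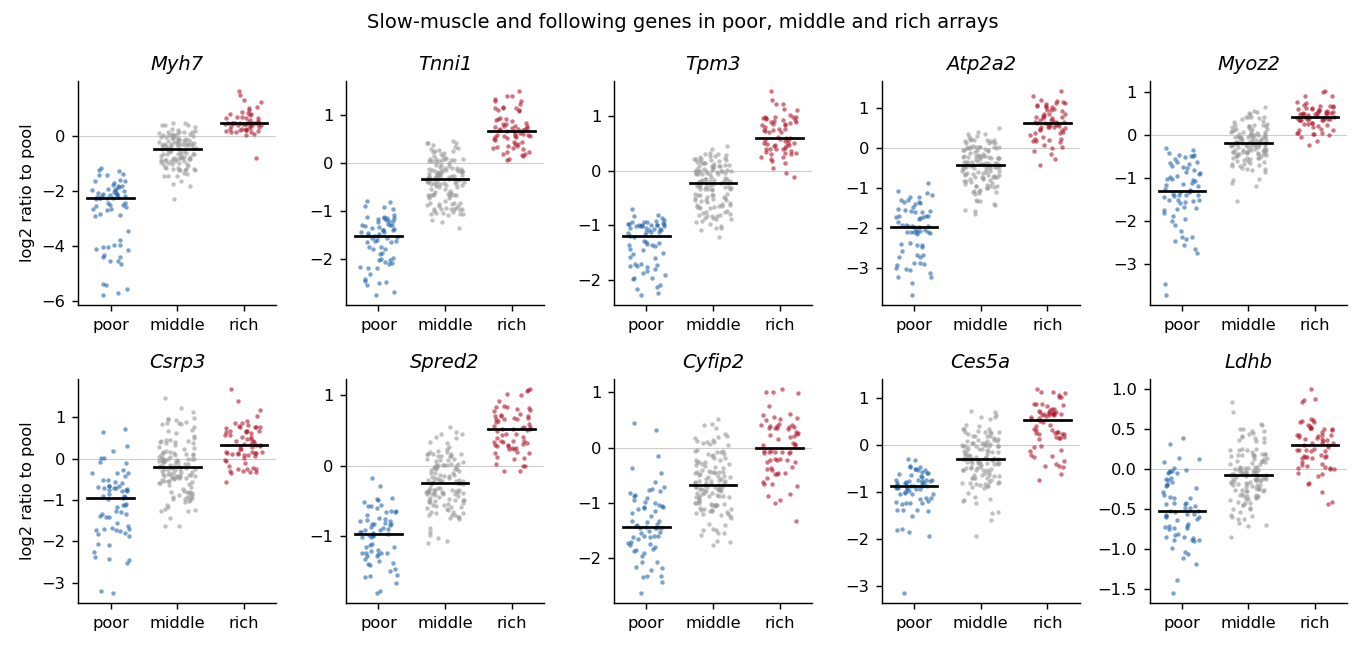
Log2 ratios to the pool of 10 genes are shown for the 66 poor (blue), 131 middle (grey) and 66 rich (red) arrays, where each point is an array with a value and each bar a group median. For Myh7, Tnni1, Tpm3, Atp2a2, Myoz2 and Spred2 no rich point lies as low as the highest poor point. The middle medians lie between the other 2, and middle arrays reach into both ranges. For Myh7, Atp2a2 and Myoz2 the middle median itself lies within the rich range.

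Genes with no place in these lists were higher as well. Spred2, an inhibitor of Ras signalling to ERK, had 2 probes, of which only 1 was among the 9 without overlap. On that probe the rich arrays ran from -0.08 through 0.52 to 1.09 and the poor arrays from -1.80 through -0.96 to -0.17. The difference on that probe was 1.49 ± 0.06 (limma adjusted p = 1.14e-50), and 1.44 with the covariates. Cyfip2, a subunit of the WAVE complex that drives actin branching, had a median of -0.01 in rich and -1.44 in poor arrays, a difference of 1.38 ± 0.10 (adjusted p = 4.81e-25). Ces5a, a carboxylesterase, differed by 1.37 ± 0.08 (adjusted p = 1.00e-32), with 59 of 66 rich arrays above every poor array. Ndrg4, of the NDRG family, differed by 1.28 ± 0.08 and the small GTPase Rab15 by 1.05 ± 0.08.

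Fhl2, a LIM-domain protein, differed by 1.10 ± 0.10 and by 1.43 with the covariates. Pdlim1, of actin stress fibres, differed by 1.00 ± 0.06 (limma adjusted p = 1.90e-33). Csrp1 (0.78 ± 0.06) and Ablim1 (0.59 ± 0.04), which also bind the actin skeleton, were named after their values were seen. Ift81, a carrier subunit of cilia, had 64 of 66 rich arrays above every poor array and a difference of 0.99 ± 0.04 (adjusted p = 3.73e-43). The ETS repressor Erf differed by 0.57 ± 0.03 and the cytochrome P450 Cyp2c29 by 0.46 ± 0.02, small differences with small spreads. F2, prothrombin, was higher by 1.20 ± 0.16, yet 3 poor arrays stood above the highest rich array, one of them at 4.05. All genes of this and the preceding paragraph were higher in each of the 6 blocks and on both sides of the Eif2s3y gap, and all stayed called with the covariates.

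The 131 middle arrays entered neither group, so they give the same measurement in other animals. In a limma fit of the log2 ratio on the score within these arrays, 35 probes (0.151%) rose and 4 (0.0172%) fell. All 35 rising probes were also higher in the rich arrays, which is 1.82% of the 1920 higher there, and 2 of the 4 falling probes were lower. The slope was 1.40 ± 0.08 log2 units per unit of the score for Myh7 (adjusted p = 1.09e-30), 1.11 ± 0.07 for Atp2a2, 1.10 ± 0.05 for Tnni1, 0.80 ± 0.06 for Spred2 and 0.70 ± 0.08 for Myoz2. Ces5a, Csrp3, Cyfip2, Csrp1, Lmod2, Ift81, Cyp2c29, Erf and Ablim1 rose as well, by 0.72, 0.72, 0.63, 0.48, 0.39, 0.39, 0.28, 0.26 and 0.26 per unit. Ankrd2 (0.43, adjusted p = 0.122), Fhl1 (0.28, 0.266) and Casq2 (0.20, 0.147) did not pass in the middle arrays, where the score spans less. Nor did Ndrg4 (0.45, adjusted p = 0.0620), Pdlim1 (0.31, 0.0862), F2 (0.41, 0.417), Fhl2 (0.31, 0.478), Rab15 (0.23, 0.608), Hspb7 (0.11, 0.181), Hspb6 (0.17, 0.493) and Cryab (0.11, 0.762). With both covariates 43 probes rose and 4 fell.

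Fast-fibre genes were poorly measured. Of 18 genes on the fast list, 8 had no named probe and 7 had a value on fewer than 80% of the arrays, which left 3. Cacng1, the gamma subunit of the muscle calcium channel, was lower in the rich arrays by 0.26 ± 0.05 log2 units (limma adjusted p = 1.21e-05) and by 0.32 with the covariates. Jph1, which holds the calcium store membrane to the T-tubule, was lower by 0.17 ± 0.05 (adjusted p = 0.0159) and was lost with the covariates (-0.18, adjusted p = 0.102). Casq1, the fast calsequestrin, did not pass, at -0.15 ± 0.07 (adjusted p = 0.142). The ranges of all 3 overlapped widely, and none came near the sizes of Myh7, Tnni1 or Atp2a2. The smallest differences of the slow lists were of similar size, such as Hspb7 (0.11), Casq2 (0.35) and Hspb6 (0.36).

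Among regulators of fibre type, 6 of 23 tested genes were higher and 5 lower, and 2 and 2 with the covariates, with a median difference of -0.01 over the 23. Over all genes 8.65% were higher and 10.9% lower, and 4.34% and 5.42% with the covariates. Ppargc1a, which encodes PGC-1alpha, a coactivator of mitochondrial genes, had a median of 0.04 in rich and -0.34 in poor arrays. It was higher by 0.41 ± 0.07 (limma adjusted p = 9.42e-07) and by 0.42 with the covariates, but lower in 1 of the 6 blocks. Ppara, a nuclear receptor of fatty acid use, was higher by 0.44 ± 0.06 (adjusted p = 1.02e-09) and by 0.25 with the covariates, in all 6 blocks. Tbx15, a T-box factor of glycolytic fibres, was lower by 0.27 ± 0.04 (adjusted p = 2.13e-07) and by 0.16 with the covariates, in all 6 blocks.

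Other regulators lost their call with the covariates. Ppargc1b was higher by 0.31 ± 0.06 and then by 0.13 (limma adjusted p = 0.293). Sox6, a repressor of slow genes, was lower by 0.19 ± 0.07 (adjusted p = 0.0423) and then by 0.13 (adjusted p = 0.384). Myog, a factor of muscle differentiation, was higher by 0.27 ± 0.08 and then -0.14 (adjusted p = 0.328), a turn of sign. Nfix, a factor of the later muscle programme, did not pass without covariates (-0.11, adjusted p = 0.251) and was lower with them (-0.31, adjusted p = 0.00276). Esrrb and Rcan1 were called higher and Hdac5, Eya1 and Myf6 lower, without covariates only. Nfatc1, the estrogen-related receptor genes Esrra and Esrrg, Tead1, Mef2a, Mef2d, Six4, Prox1, Prkaa2, Myod1 and Foxo1 were called in neither fit.

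Among the described genes of the energy metabolism lists, Ldhb, Car3 and Lpl had the largest differences. Ldhb, the lactate dehydrogenase subunit of heart and slow muscle, had a median of 0.30 in rich and -0.52 in poor arrays and was higher by 0.78 ± 0.06 log2 units (limma adjusted p = 2.20e-22), in all 6 blocks. With the covariates it was higher by 0.75. Car3, the carbonic anhydrase of slow fibres, was higher by 0.73 ± 0.10, but by 0.35 with the covariates (adjusted p = 0.0676). Lpl, the lipase that releases fatty acids from lipoproteins, was higher by 0.59 ± 0.07 on the 59 rich and 64 poor arrays with a value, and by 0.60 with the covariates.

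In the fatty acid list, 3 of 14 tested genes were higher and 0 lower, and 6 and 0 with the covariates, with median differences of 0.07 and 0.16. The shares of all genes were 8.65% higher and 10.9% lower, and 4.34% and 5.42% with the covariates. Acadm, the medium-chain dehydrogenase, was higher by 0.13 ± 0.04 and the carrier Fabp3 by 0.15 ± 0.05, and by 0.20 and 0.37 with the covariates. Hadhb, of the trifunctional protein, and the fatty acid transporter Cd36 passed only in the fit with covariates, at 0.22 and 0.21. Acadm and Fabp3 were each lower in 2 of the 6 blocks of animal number, Cd36 in 3 and Hadhb in 1. In the respiratory chain 2 of 5 tested genes were higher: Ndufs1 and Ndufa2 of complex I, by 0.11 and 0.10, and by 0.16 and 0.14 with the covariates. Of the citric acid cycle and its shuttles, 4 of 9 were higher and 1 lower, and 2 and 0 with the covariates, those 2 being Mdh1 (0.18 ± 0.04) and Pdha1 (0.10 ± 0.03).

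Of the glycolysis and glycogen list, 1 of 16 tested genes was higher and 4 lower, with a median difference of -0.02. The shares of all genes were 8.65% and 10.9%, and 4.34% and 5.42% with the covariates. With the covariates 1 other gene was higher (Ppp1r3a, a glycogen-targeting subunit of phosphatase, 0.10), 3 were lower and 1, Gapdh, had probes called in both directions. Aldoa, muscle aldolase, did not pass without covariates (-0.06, limma adjusted p = 0.196) and was lower with them (-0.18, adjusted p = 0.00131). Phka1, a regulatory subunit of the muscle's phosphorylase kinase, was lower by 0.26 ± 0.05 (limma adjusted p = 9.02e-06) in all 6 blocks. Pygm, muscle glycogen phosphorylase, was lower by 0.12 ± 0.03, and both stayed called with the covariates (-0.22 and -0.11). Pkm was lower by 0.09 and lost its call (adjusted p = 0.207). The 1 gene called higher, Gapdh, had 35 probes and rests on the one of smallest p, at 0.11.

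**Figure D3:**
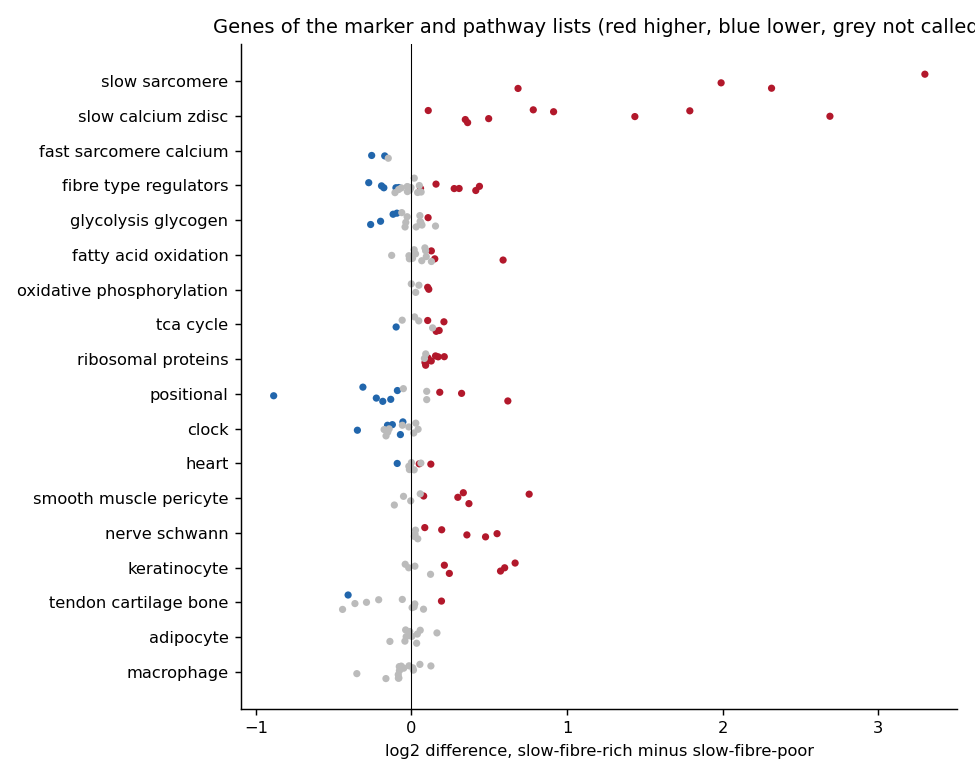
Each point is a tested gene of 1 of 18 marker and pathway lists, placed at its log2 difference between rich and poor arrays, in red where called higher, blue where called lower and grey where not called. The slow sarcomere genes reach 3.30 and the calcium and Z-disc genes 2.69, while the other lists shown lie mostly between -0.5 and 0.5.

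Several of the genes with the largest lower values in the rich arrays differed along the Eif2s3y gap. Eif2s3y itself was lower by 3.35 ± 0.48 log2 units (limma adjusted p = 1.27e-08), and Kdm5d, a Y-linked histone demethylase, by 1.99 ± 0.27. Of the rich arrays 10 of 66 lay above the gap, against 44 of 66 poor arrays. Within the arrays below the gap, Kdm5d differed by -0.17, and within those above, by -0.23.

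Odc1, ornithine decarboxylase, which makes the first polyamine, was lower in the rich arrays by 0.70 ± 0.10 (limma adjusted p = 3.26e-09). Below the gap its median was -0.75 in 56 rich and -0.50 in 22 poor arrays, and above the gap 0.39 in 10 rich and 0.44 in 44 poor arrays. Smox, spermine oxidase of the same pathway, was lower by 0.86 ± 0.14 (adjusted p = 6.47e-07), with medians of -1.20 and -1.15 below the gap and 0.45 and 0.55 above it. Cds1, which makes CDP-diacylglycerol, was lower by 0.78 ± 0.11, with medians of -1.06 and -0.93 below and 0.42 and 0.40 above. For these 3 genes the sides of the gap lay farther apart than rich and poor arrays on 1 side. With both covariates their differences were -0.14, -0.08 and -0.07, and none was called (adjusted p = 0.317, 0.685 and 0.660).

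Other genes among the 15 with the largest lower difference lost their call likewise. Cdk19, a Mediator kinase, went from -0.92 to -0.10 with the covariates, Otog, otogelin, from -0.78 to -0.25, Cited4, a transcription coregulator, from -0.75 to -0.34, the integrin subunit Itgad from -1.10 to -0.54 and the macrophage elastase Mmp12 from -0.90 to -0.48. None of these 5 was called with the covariates. Tiam1, an activator of Rac, was lower by 1.14 ± 0.12 (limma adjusted p = 1.65e-14) and stayed called at -0.42 (adjusted p = 0.00148).

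A further set was lower on each side of the gap and with the covariates. Rab40b, a Rab-like protein of ubiquitin ligases, ran from -0.73 through 0.00 to 0.58 in rich and from -0.08 through 0.46 to 1.30 in poor arrays. Its difference was -0.46 ± 0.04 (limma adjusted p = 1.39e-17), with medians of -0.02 and 0.37 below the gap and 0.19 and 0.60 above it, and -0.29 with the covariates. Hjv, hemojuvelin, a coreceptor for bone morphogenetic proteins in iron control, was lower by 0.26 ± 0.03 (adjusted p = 1.07e-13), with medians of 0.02 and 0.24 below the gap and 0.17 and 0.38 above. Klhl8, a Kelch-like adaptor, was lower by 0.22 ± 0.03, and by 0.22 ± 0.04 with the covariates. Its medians were 0.12 and 0.36 below the gap and 0.02 and 0.32 above, but it was higher in 1 of the 6 blocks, by 0.04.

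In the same set, Tbx1, a T-box factor, was lower by 0.89 ± 0.11 and by 0.74 with the covariates, although higher in 2 of the 6 blocks. Cpeb1, a regulator of polyadenylation, was lower by 0.60 ± 0.07, Sorbs2, an actin adaptor, by 0.62 ± 0.07, and the zinc finger gene Zfp296 by 0.48 ± 0.05. These 3 were lower in all 6 blocks and stayed called with the covariates at -0.36, -0.30 and -0.18. Rpusd3, a pseudouridine synthase-like protein, and Ptges3l were lower by 0.27 each and also stayed called. Ppp1r14b, a phosphatase inhibitor, was lower by 0.33 ± 0.04 and missed the threshold with the covariates (-0.10, adjusted p = 0.0595). In every one of these genes the rich and poor ranges overlapped.

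**Figure D4:**
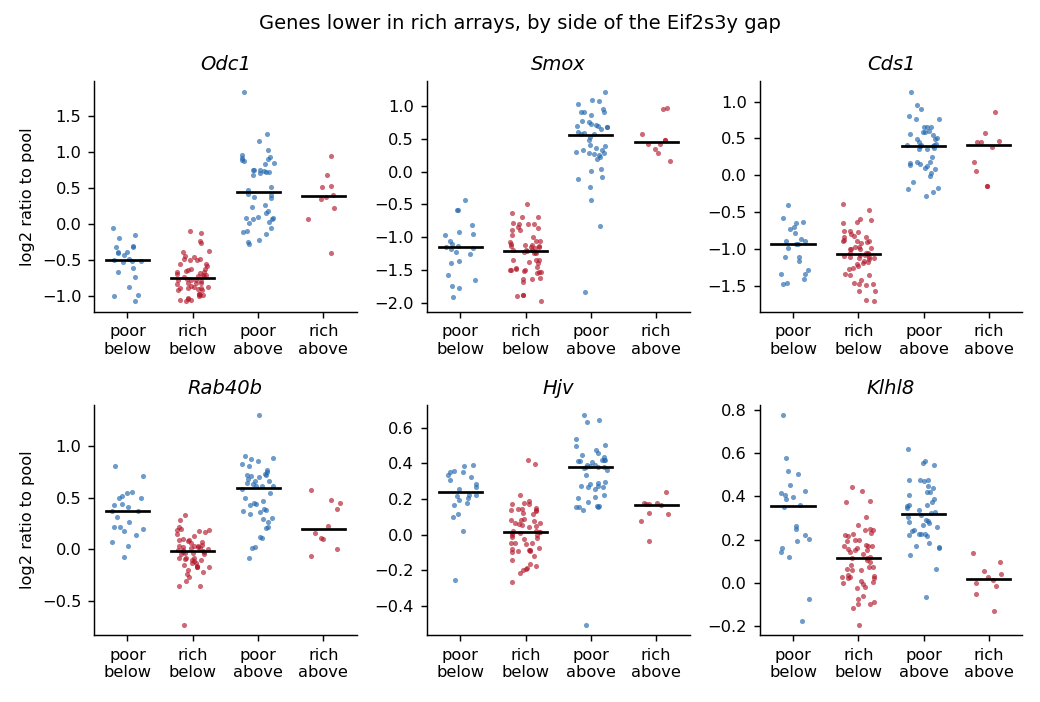
Log2 ratios to the pool of 6 genes called lower in rich arrays are split by the side of the Eif2s3y gap, with poor arrays in blue (22 below, 44 above), rich arrays in red (56 below, 10 above) and bars at the medians. Odc1, Smox and Cds1 differ mainly between the sides of the gap, while Rab40b, Hjv and Klhl8 have a lower rich median on both sides.

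For several matrix and tendon genes the blocks of animal number disagreed. Dkk3, a secreted Dickkopf protein, was lower by 1.13 ± 0.15 (limma adjusted p = 3.29e-10) and by 0.51 with the covariates (adjusted p = 0.0612), with block differences from -1.62 to 0.15. Kera, keratocan, a matrix proteoglycan, was lower by 0.71 ± 0.21 (adjusted p = 0.00824), but higher in 4 of the 6 blocks and at -0.09 with the covariates. Prg4, the joint lubricant lubricin, was lower by 0.66 ± 0.17 and at -0.06 with the covariates. Thbs4, a thrombospondin of tendon, was lower by 0.41 ± 0.11 and at 0.09 with the covariates, while Scx, the tendon transcription factor, was higher by 0.19 ± 0.05 and by 0.20. Of the tendon, cartilage and bone list, 1 of 11 tested genes was higher and 1 lower, against 8.65% and 10.9% of all genes. With the covariates 1 was higher and 0 lower, against 4.34% and 5.42%. The mean ratio of these 11 genes had a median of -0.11 in rich (-1.06 to 1.77) and 0.03 in poor arrays (-0.82 to 1.87).

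Positional genes mark regions of limb and trunk. Of 12 tested, 3 were higher and 6 lower, against 8.65% and 10.9% of all genes. With the covariates 1 was higher and 3 lower, against 4.34% and 5.42%. Hoxc10 was lower by 0.31 ± 0.04 (limma adjusted p = 7.26e-10) in all 6 blocks and by 0.24 with the covariates, and Tbx5, of the forelimb, by 0.09 and 0.11. Lbx1, of migrating muscle precursors, was lower by 0.23 ± 0.04 and missed the threshold with the covariates (-0.13, adjusted p = 0.0502). Hoxa11, of the limb's middle segment, was higher by 0.62 ± 0.20 and by 1.18 with the covariates. Its blocks disagreed, from -1.46 to 1.96, with 4 of 6 lower, and within numbers outside 181 to 300 it was lower by 0.87 (adjusted p = 0.193). Hoxd9 and Pitx1, the latter a factor of the hind limb, were higher by 0.18 and 0.32 and lost their calls, Pitx1 with a value of -0.01.

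Ribosomal protein and clock genes were called mostly in the fit without covariates. Of 11 ribosomal protein genes, which had 53 tested probes, 9 were higher without covariates and 1 with them, against 8.65% and 4.34% of all genes. Their median difference was 0.09, and 0.05 with the covariates. In that fit 8 of the 11 had a probe higher at an unadjusted limma p under 0.05, and 0 had a lower one. Of 14 clock genes, 0 were higher and 5 lower, against 8.65% and 10.9% of all genes. With the covariates 0 and 0 were called in limma, where 1 higher and 2 lower had an unadjusted p under 0.05. Nfil3, a repressor under clock control, went from -0.35 ± 0.06 (limma adjusted p = 1.98e-06) to -0.11 (adjusted p = 0.386), and Bhlhe41, another repressor, from -0.15 to -0.06.

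Heart muscle shares Myh7, Tnnc1, Myl2 and Atp2a2 with slow fibres, so markers of heart were read beside them. Of 9 tested heart genes, 2 were higher and 1 lower, against 8.65% and 10.9% of all genes, with a median difference of -0.00048. With the covariates 1 was higher and 0 lower, against 4.34% and 5.42%, with a median of 0.03. Myh6, the atrial and adult mouse heart myosin, closely similar in sequence to Myh7, was higher by 0.05 ± 0.02 (limma adjusted p = 0.0393). Tnnt2, the cardiac troponin T, was higher by 0.12 ± 0.04, Tnni3, the cardiac troponin I, did not pass (0.06, adjusted p = 0.0527), Myl7, the atrial light chain, was lower by 0.09 ± 0.03, and Mybpc3, the cardiac myosin-binding protein, did not pass (-0.01, adjusted p = 0.944). The mean ratio of the 9 genes ran from -0.04 to 0.25 in rich (median 0.09) and from -0.01 to 0.22 in poor arrays (median 0.07). The part of heart RNA in the slow-fibre differences was not tested. Tnnt2 was lower in 2 of the 6 blocks of animal number. With the covariates Tnnt2 was higher by 0.22 (adjusted p = 0.000953), and Myh6 (0.06, adjusted p = 0.105) and Myl7 (-0.08, adjusted p = 0.149) lost their calls.

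Markers of other cell types differed in a few lists. Smooth muscle genes were higher for 5 of 9 tested genes and 4 with the covariates, against 8.65% and 4.34% of all genes. Cnn1, calponin, was higher by 0.76 ± 0.11 (limma adjusted p = 5.98e-09), Acta2, smooth muscle actin, by 0.37 ± 0.07, Tagln by 0.33 and Myh11 by 0.30, and the last lost its call with the covariates (0.22, adjusted p = 0.117). The mean ratio of these 9 genes had a median of -0.05 in rich (-0.67 to 0.62) and -0.28 in poor arrays (-0.78 to 0.13). Their part in the slow-fibre differences was not tested.

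Nerve and Schwann cell genes were higher for 5 of 9 and for 1 with the covariates, against 8.65% and 4.34% of all genes. Drp2, of the Schwann cell membrane, was higher by 0.48 ± 0.05 (limma adjusted p = 1.59e-13) in all 6 blocks and by 0.28 with the covariates. Mbp, myelin basic protein, and Pmp22 were higher by 0.55 and 0.36 and missed the threshold with the covariates (adjusted p = 0.0857 and 0.0919). Both were higher in 3 blocks and lower in 3, from -0.39 to 0.90 for Mbp and from -0.33 to 0.62 for Pmp22. Keratinocyte genes were higher for 5 of 9 in both fits: Krt15 by 0.67 ± 0.16, Krt14 by 0.60 ± 0.13 and loricrin, Lor, by 0.57 ± 0.16, and by 0.83, 0.65 and 0.74 with the covariates. Their distributions were skewed. Krt15 had medians of -1.33 in rich and -1.64 in poor arrays, and 11 of 66 rich arrays stood above the highest poor array. The part of nerve and skin RNA in the other differences was not tested.

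In most other lists few or no genes were called. Adipocyte genes gave 0 of 11 in either direction, macrophage genes 0 of 14, neutrophil genes 0 of 9, erythroid genes 0 of 6 and liver genes 0 of 8 in limma, without and with the covariates. At an unadjusted p under 0.05 and without covariates, 1 adipocyte gene was higher, 1 macrophage and 1 neutrophil gene were lower, and 0 erythroid and 0 liver genes differed. With the covariates 1 adipocyte, 1 macrophage and 1 liver gene were lower at that p, and 0 genes of these lists were higher. The median difference of the adipocyte genes was -0.007 without and -0.15 with the covariates. Lymphocyte genes gave 0 higher and 1 lower of 10, satellite cell genes 0 and 1 of 9, endothelial genes 0 and 2 of 13 and proteasome genes 0 and 2 of 16. Fibroblast matrix genes gave 1 and 1 of 15 and atrophy genes 1 and 0 of 7. A list of stress and heat shock genes gave 2 and 2 of 9, the higher ones Dnajb1 and Xirp1, the latter no heat shock protein. A list of muscle spindle and extraocular genes gave 2 and 0 of 3. Its higher genes, Myh6 and Tnnt2, were those already counted as heart genes, and Egr3 was not called. With the covariates the higher and lower genes were 0 and 1 (lymphocyte), 0 and 0 (satellite cell) and 0 and 1 (endothelial). In the same fit they were 0 and 1 (proteasome), 1 and 0 (fibroblast), 1 and 1 (stress and heat shock) and 0 and 1 (atrophy). The spindle and extraocular list then had 1 and 0. Xirp1 was the higher gene of the stress list in that fit, and Tnnt2 that of the spindle list. Lower shares of 1 of 10, 1 of 9 and 2 of 13 are close to the 10.9% of all genes called lower. The share of all genes called higher was 8.65%, and with the covariates 4.34% were higher and 5.42% lower. The mean ratio of the macrophage genes had medians of -0.62 in rich and -0.55 in poor arrays, and that of the adipocyte genes -0.39 and -0.42. In the brown fat list 2 of 9 were higher, Ppargc1a and Dio2, the latter an activator of thyroid hormone, by 0.28 ± 0.07. With the covariates 4 of 9 were higher: these 2 (Dio2 by 0.38), Cidea, a lipid droplet protein, by 0.70, and the zinc finger gene Zic1 by 0.69.

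**Figure D5:**
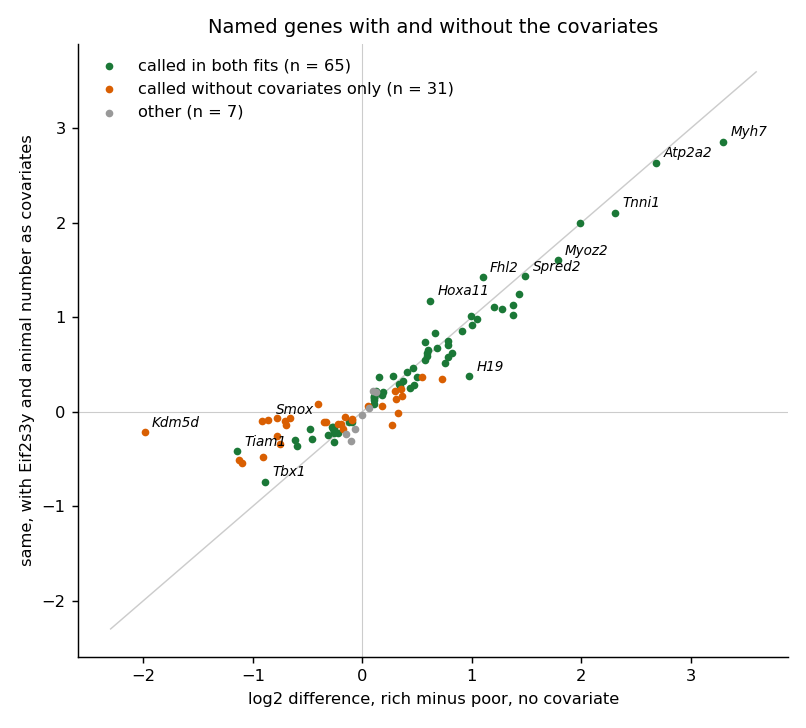
For 103 named genes, leaving out Eif2s3y, the log2 difference between rich and poor arrays without covariates (horizontal axis) is plotted against that with Eif2s3y and animal number as covariates (vertical axis), with the grey diagonal where both are equal. Green genes (65) were called in both fits and orange genes (31) only without covariates: Myh7, Atp2a2 and Tnni1 lie near the diagonal, while Kdm5d and Smox lie near 0 on the vertical axis.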

How the data were processed

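The deposited table gives the authors' log10 ratio of each animal's RNA to the pool, for 23382 probes on 319 arrays. The base and direction were derived from the values, since the labels state neither. Background correction, normalization and the reason for blanks are not given in the sources used here. Values end at a 100-fold ratio and were turned into log2 ratios. Names came from the platform table, where 13639 probes have 1 symbol, 48 have several and 9695 have none, and were kept for 12647 probes whose gene was found in RefSeq GRCm38.p6. Promoter windows are RefSeq's on that build. The 23190 tested probes had a value on at least 80% of eligible arrays, and 188 did not. The 4 probes of the rule were left out.

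Groups were compared with limma 3.58.1 (lmFit, eBayes) in R 4.3.3, two-sided, with Benjamini-Hochberg adjustment over all tested probes. The scripts were tested on simulated data. Named genes are members of the lists, the 15 with the largest difference and the 10 with the smallest p in each direction, leaving out probes with a value at the limits of the scale. Csrp1, Ablim1, H19, Nnt and Gys2 were named after their values were seen. The members, rule and lists were chosen with earlier results of these data known. Nothing in the labels says that samples are separate extractions, so p-values measure the spread between arrays. An animal number, 227, stands on 2 arrays; both are middle arrays that correlated at r = 0.535, less than with other arrays (0.613 and 0.723), and both were kept. Alternatives covered the borders and genes of the score, normalization, filters, weights and covariates.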

Additional observations from a re-analysis of the deposited data

How the results depend on the processing

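The counts of called probes stayed within 1.5 times the main counts of 1920 higher and 2047 lower under other borders of the score (except 1216 lower above and below its median), no Cd79b limit, single rule genes, other normalizations and filters, array weights and each single covariate. Alternatives chosen after seeing the data moved them: both covariates together gave 989 higher and 1170 lower, arrays below the Eif2s3y gap 584 and 630, those above it 617 and 406, numbers 181 to 300 1221 and 1035, and other numbers 760 and 692. These hold fewer arrays, except the first. Above the gap 60.3% of calls were higher, against 48.4% in all. In the middle arrays the 4 falling probes became 7 with quantile normalization and 11 with animal number as covariate. Subtracting array medians or quantile normalization moved the median difference of all probes to -0.00048 and -0.00014. Signs turned with Eif2s3y as covariate for Myog (-0.12), with both covariates for Myog (-0.14), Pitx1 (-0.013) and Thbs4 (0.085), and with animal number for Kera (0.032). Above the gap they turned for Cdk19 (0.010), Smox (0.081), Kera (0.24), Prg4 (0.19), Myog (-0.22), Pitx1 (-0.028) and Thbs4 (0.34), and below it for Mmp12 (0.18), Sox6 (0.076) and Myog (-0.061). In numbers 181 to 300 they turned for Kera (0.16), Prg4 (0.021), Myog (-0.088) and Thbs4 (0.27), and in the other numbers for Hoxa11 (-0.87) and Tnnt2 (-0.024). The cause was not tested. No paired analysis was possible because the labels give 1 group of arrays and no pairs.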

Other observations

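Probes with many blanks were left out of the tests, and several belong to abundant muscle proteins. Where both groups had enough values they were fitted apart. Mb, the oxygen store myoglobin, was higher in the rich arrays by 0.29 ± 0.07 log2 units (limma adjusted p = 0.00214) on 50 rich and 48 poor arrays, and Cox7b, of cytochrome oxidase, by 0.22 ± 0.07 (adjusted p = 0.0150) on 52 and 44. Atp2a1, the fast calcium pump, had values on 26 rich and 28 poor arrays and differed by -0.14 ± 0.10 (adjusted p = 0.383). Tnnc2, the fast troponin C, had values on 12 rich and 23 poor arrays, the fast calcium buffer Pvalb on 12 and 5, and Tnni2, the fast troponin I, on 7 and 1. Pax3, a factor of muscle precursors, was lower by 0.18 ± 0.06 (adjusted p = 0.0148) on 47 and 59 arrays. Why values are blank is not known.

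Genes named after their values were seen included H19, the imprinted RNA of muscle growth, and Nnt, the mitochondrial transhydrogenase, of which C57BL/6J is known to carry a defective copy. H19 was higher in the rich arrays by 0.98 ± 0.10 log2 units (limma adjusted p = 4.98e-15), in all 6 blocks of animal number, and by 0.37 with Eif2s3y and animal number as covariates. Nnt was higher by 0.82 ± 0.11 (adjusted p = 3.86e-09) and by 0.62 with the covariates, and its medians were 0.38 in rich and -0.33 in poor arrays with wide overlap. In the middle arrays Gys2, a glycogen synthase, fell with the score by 0.74 ± 0.18 per unit (adjusted p = 0.0331), but it was not called between rich and poor arrays (-0.30).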
